A study of Sus scrofa with 10 samples.

Results

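SLC17A6 and SLC17A7 encode the vesicular glutamate transporters VGLUT2 and VGLUT1, and were 2 of the 22452 genes counted in single cells of the developing medial entorhinal cortex (MEC) of the pig. The pair was chosen by name, not by its values, and is described here across all 10 libraries and the classes of neurons in them. The whole cell libraries, dissociated from fresh tissue, came from embryonic day (E) 50 (1 library, E50_1), E60 (3 libraries, E60_1 to E60_3), E70 (3 libraries, E70_1 to E70_3) and the adult (1 library, Adult_1). The isolated nuclei, from frozen tissue, came from E70 (E70_nc) and the adult (Adult_nc), with 1 library each. The animals were crossbred fetuses and adult sows, and no treatment of them is described. The authors' methods list both deceased postnatal pigs of a stated day and adult sows killed for another study. They name an adult sow as the source of the later libraries, while their results give that stage as a postnatal day. A library held tissue from 1 to 3 brains.

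A neuron can release glutamate only after a transporter of this family has loaded it into synaptic vesicles, driven by the acid interior that the vesicle's proton pump maintains. In the rodent brain SLC17A6 is typical of thalamus, midbrain and young cortex, while SLC17A7 takes over in the maturing cortex, hippocampus and cerebellar granule cells and also serves the photoreceptors. GABAergic neurons instead load their vesicles through SLC32A1, using GABA made by GAD1 and GAD2.

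SLC17A6 lies on chromosome 2 of Sscrofa11.1, from 37098983 to 37138935 on the minus strand, and SLC17A7 on chromosome 6, from 54511121 to 54521616, also on the minus strand. Both have 12 exons in the RefSeq annotation, all coding in part or in full. Their proteins hold 582 and 561 residues, and 78.2% of 556 aligned residues were identical. Introns made up 88.2% of the span of the SLC17A6 transcript and 71.6% of that of SLC17A7. Because the authors counted intronic reads as well, and counted from the 3′ end, the level of one gene cannot be set against that of the other. Each gene was therefore compared with itself.

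The deposited counts are UMIs (unique molecular identifiers, 1 per captured molecule), and a level in CPM is a gene's UMIs per 1000000 UMIs summed over the cells named. The 28229 cells held 7752 UMIs of SLC17A6 in 4368 cells and 771 UMIs of SLC17A7 in 572 cells. Libraries held between 2336865 (Adult_nc) and 55755512 UMIs (E50_1). Barcodes shared by 2 libraries numbered 0 to 57 over the 45 pairs. Intervals in brackets are exact 95% intervals and cover counting error only.

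The libraries were not alike in which cells they held, and this touches every stage comparison. Cortical excitatory-like cells, named from a marker list that includes TBR1, EMX1, BCL11B, FEZF2, NEUROD2 and NEUROD6, numbered 1203 in E60_3 but 1 each in E60_1 and E60_2. They made up 47.9%, 48.6% and 49.1% of the cells of E70_1, E70_2 and E70_3. Cells with markers that go against the dissected tissue were also present: 229 were Purkinje-like, 572 cerebellar granule-like and 146 photoreceptor or pineal-like, the last with SAG at 553 CPM and RCVRN at 353 CPM. Microglia-like cells, which should lack both transporters, had SLC17A6 at 0 to 5.53 CPM and SLC17A7 at 0 to 2.08 CPM in the 7 libraries with at least 20 such cells, and this is the background read below. E70_1, E70_2 and E70_nc had 5 to 8 such cells and have no background of their own.

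Over all cells of a library, SLC17A6 was at 45.9 CPM in E50_1. It was at 10.4, 5.43 and 65.5 CPM in E60_1, E60_2 and E60_3, and at 55.3, 63.6 and 53.2 CPM in E70_1, E70_2 and E70_3. The E70 values lay close together, while those of E60 spanned them on both sides. It was at 131 CPM in the E70 nuclei, 4.40 CPM in the adult cells and 8.13 CPM in the adult nuclei. SLC17A7 was at 3.59 CPM in E50_1, at 0.436, 0.118 and 3.85 CPM in the E60 libraries and at 6.33, 1.44 and 10.9 CPM in E70_1, E70_2 and E70_3. Again the groups overlapped, since E70_2 lay below E60_3. SLC17A7 was at 17.5 CPM in E70_nc, 3.17 CPM in Adult_1 and 3.42 CPM in Adult_nc.

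**Figure D1:**
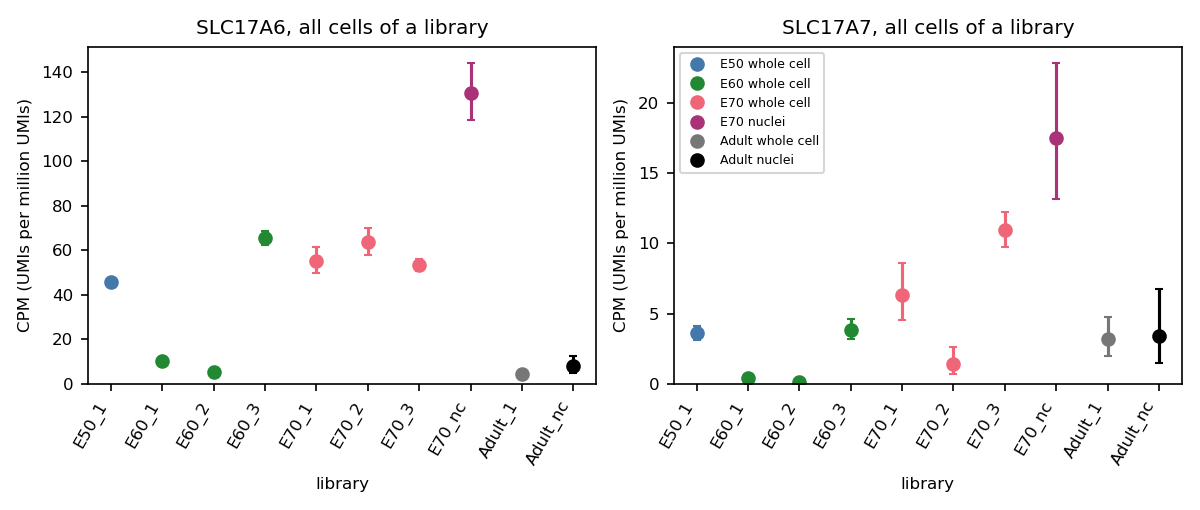
Level of SLC17A6 and SLC17A7 in CPM over all cells of each of the 10 libraries, coloured by stage and cell fraction. Points are single libraries and bars are exact 95% Poisson intervals, which cover counting error only. E60_1 and E60_2 lie far below E60_3 for both genes, and E70_nc is the highest library for both.

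The E70 whole cell libraries were tested against those of E60, the only groups with replicates, by edgeR's quasi-likelihood test on the UMIs summed per library. SLC17A6 was higher at E70 by 1.04 on the log2 scale (SE 0.75) with an adjusted p of 0.36, and SLC17A7 by 2.06 (SE 1.12) with an adjusted p of 0.24, so neither difference passed the threshold of 0.05. Over 12 other settings the adjusted p ranged from 0.015 to 0.98 for SLC17A6 and from 0.027 to 0.98 for SLC17A7. The fit called 0% of the 16743 genes tested, although 4916 had an unadjusted p under 0.05 and DESeq2 called 2833. The result turned on E60_3. Without it, SLC17A6 was higher by 2.57 (adjusted p = 0.015) and SLC17A7 by 4.14 (adjusted p = 0.027) in the edgeR fit, and with E60_3 as the only E60 library SLC17A6 was lower by 0.19 (-0.19, adjusted p = 0.95). In such sums alone, fewer neurons and less RNA per neuron cannot be told apart. Neurons and intermediate progenitor-like cells were 18.0%, 9.05% and 69.5% of the cells of E60_1, E60_2 and E60_3. They were 74.4%, 73.4% and 66.8% of those of E70_1, E70_2 and E70_3. How far these shares set the difference was not tested.

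Summed over neurons and intermediate progenitor-like cells, SLC17A6 lay at similar levels in both stages, but the classes summed were not alike. Cortical excitatory-like cells were 1 of 1474, 1 of 315 and 1203 of 1875 of these cells in E60_1, E60_2 and E60_3. They were 236 of 367, 300 of 453 and 1533 of 2085 in E70_1, E70_2 and E70_3. The level of SLC17A6 was 53.1, 64.6 and 103 CPM in the E60 libraries and 73.1, 86.5 and 79.5 CPM in those of E70, with the E70 values inside the E60 range. The edgeR difference was -0.02 (SE 0.30, adjusted p = 0.96). With E60_3 as the only E60 library it was -0.41. SLC17A7 in these cells was at 1.83, 0.548 and 5.77 CPM at E60 and at 8.85, 1.75 and 16.3 CPM at E70. These sums include the photoreceptor or pineal-like cells, which held 36 of the 39 SLC17A7 UMIs of E70_1. E70_2 fell among the E60 libraries, and the difference of 1.47 (SE 0.86) did not pass the edgeR test (adjusted p = 0.30). It was 0.62 without E70_3 and 2.43 without E60_3, and passed in neither (adjusted p = 0.64 and 0.11 in edgeR). Without the photoreceptor or pineal-like cells, an alternative chosen after seeing the data, it was 1.02 (SE 1.04, adjusted p = 0.54 in edgeR). The fit with all of these cells and libraries called 0% of 14806 genes, with 3791 at an unadjusted p under 0.05 and 1766 called by DESeq2.

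SLC17A7 as a share of the UMIs of both genes was 7.24% (6.30 to 8.27%) in E50_1, 4.03%, 2.13% and 5.55% in the E60 libraries and 10.3%, 2.21% and 17.0% in those of E70. The 3 E60 libraries averaged 3.90% (SD 1.71) and the 3 E70 libraries 9.84% (SD 7.41). The difference of 5.94 points was within the spread of the E70 libraries (exact permutation test, two-sided, p = 0.3, the smallest possible being 0.1). It was 2.35 points without E70_3 and 9.75 points without E70_2. Without the photoreceptor or pineal-like cells, an alternative chosen after seeing the data, the share in E70_1 was 1.19% and the difference 2.49 points (exact permutation p = 0.9). The share was 11.8% (8.98 to 15.1%) in E70_nc, 41.8% (28.7 to 55.9%) in Adult_1 and 29.6% (13.8 to 50.2%) in Adult_nc. The adult shares lay above all 8 fetal values, on 55 and 27 UMIs. The interval of Adult_nc covers the 17.0% of E70_3, however, and overlaps the interval of E70_nc. Of the adult SLC17A6 UMIs, 3 of 32 in Adult_1 and 8 of 19 in Adult_nc were in neurons or intermediate progenitor-like cells. The same cells held 15 of 23 and 6 of 8 of the SLC17A7 UMIs. The adult shares over all cells are therefore not shares within neurons. Nuclei and whole cells are ranked together here, and the adult and the E70 nuclei have no replicate libraries.

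The UMIs of the 2 genes came from different cells in different libraries. Cortical excitatory-like cells held 61.9% of all SLC17A6 UMIs and 71.9% of all SLC17A7 UMIs. In E60_1 and E60_2, however, 81.2% and 83.3% of the SLC17A6 UMIs were in clusters of mixed neurons, whose markers fitted more than 1 class. In E50_1, 33.3% were in LHX9/TCF7L2 neuron-like cells. In E70_1, 90.0% of the SLC17A7 UMIs, 36 of 40, were in 27 photoreceptor or pineal-like cells, and only 3 were in its 236 cortical excitatory-like cells.

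**Figure D2:**
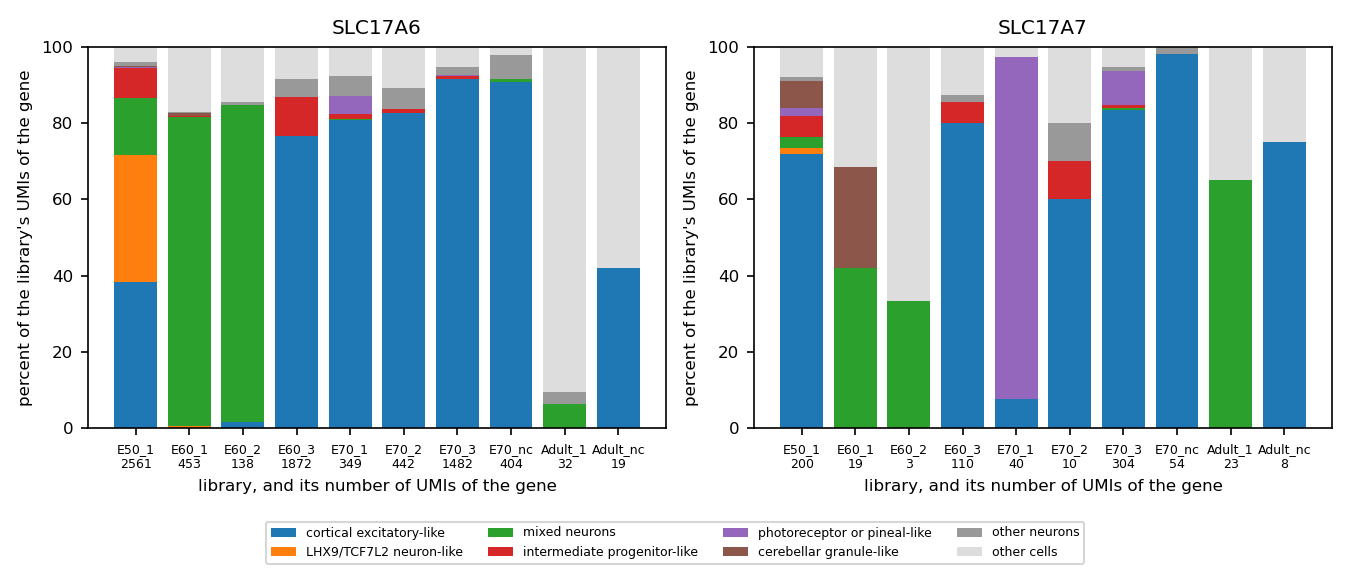
Share of each library's SLC17A6 UMIs (left) and SLC17A7 UMIs (right) found in each class of cells, in percent, with the number of UMIs under each library. Cortical excitatory-like cells hold over 70% of both genes in E60_3 and E70_3, whereas photoreceptor or pineal-like cells hold 90.0% of the SLC17A7 UMIs of E70_1.

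Among the classes, SLC17A6 was highest in the LHX9/TCF7L2 neuron-like cells (cluster 17, led by LHX9, TFAP2D, NDST4 and POU4F2). LHX9 and TCF7L2 are transcription factors of the developing thalamus and midbrain, and POU4F1, another of the fixed markers, had no UMI there. Of its 570 cells 558 came from E50_1, where the level of SLC17A6 was 202 CPM (189 to 216) and that of SLC17A7 0.711 CPM (0.147 to 2.08). SLC17A6 was thus above the other classes of the same library, of which cortical excitatory-like cells were at 61.8 CPM (58.0 to 65.8), intermediate progenitor-like cells at 53.3 CPM (46.2 to 61.2) and mixed neurons at 51.6 CPM (46.5 to 57.0). These last 2 did not differ beyond counting error. SLC17A7 could not be told from background in the LHX9/TCF7L2 neuron-like cells. Without batch correction the class held other cells and its SLC17A6 level in E50_1 was 106 CPM.

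In cortical excitatory-like cells the mean level of SLC17A6 was 108 CPM ± 46.0 (SD, n = 7 libraries), and the level lay above the range of the background in all 7. It was at 61.8 CPM in E50_1, 145 CPM in E60_3, 128, 117 and 99.2 CPM in E70_1, E70_2 and E70_3, 169 CPM in E70_nc and 37.7 CPM in Adult_nc. Among the fetal whole cell libraries the value was highest in E60_3 and lowest in E50_1. E60_3 (137 to 152 CPM) and E70_1 (113 to 144 CPM) did not differ beyond counting error. The adult value rests on 8 UMIs in 107 nuclei (16.3 to 74.3 CPM). After each cell was thinned to 1000 UMIs, 6.76% of the cells of E50_1 (5.61 to 8.06%) had a UMI of SLC17A6, against 193 of 1203 cells in E60_3 (14.0 to 18.2%) and 10.2% to 14.4% of the cells of E70_1, E70_2 and E70_3. No cell of these libraries was too shallow to be thinned. Before thinning these shares were 38.9%, 63.9% and 52.3% to 66.5%, and the pooled share was 50.2% in cortical excitatory-like cells and 1.40% in microglia-like cells, at medians of 7392 and 4964.5 UMIs per cell.

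SLC17A7 in cortical excitatory-like cells averaged 13.2 CPM ± 10.7 (SD, n = 7 libraries). It was at 9.08 CPM in E50_1, 8.86 CPM in E60_3, 1.36, 1.92 and 18.5 CPM in E70_1, E70_2 and E70_3, 24.4 CPM in E70_nc and 28.3 CPM in Adult_nc (6 UMIs, 10.4 to 61.6 CPM). The E70 libraries fell apart, with E70_1 and E70_2 within the range of the background of the other libraries and E70_3 above E50_1 and E60_3. The position of E70_3 rested on its deepest cells. Without the cells of over 2.5 times the median UMIs of their library, a setting chosen after seeing the data, SLC17A7 was at 7.19 CPM (5.63 to 9.06) in E70_3, 9.09 CPM in E50_1 and 8.27 CPM in E60_3, which did not differ beyond counting error, while E70_1 and E70_2 stayed at 1.42 and 2.03 CPM. At 2000 UMIs per cell 23 of 1533 cells of E70_3 (0.953 to 2.24%), 27 of 1687 of E50_1 (1.06 to 2.32%) and 22 of 1203 of E60_3 (1.15 to 2.76%) had a UMI of SLC17A7, against 9.13%, 7.77% and 6.07% before thinning. E70_nc was the highest of the fetal libraries for both genes, although its nuclei came from 1 brain and no replicate of it exists.

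**Figure D3:**
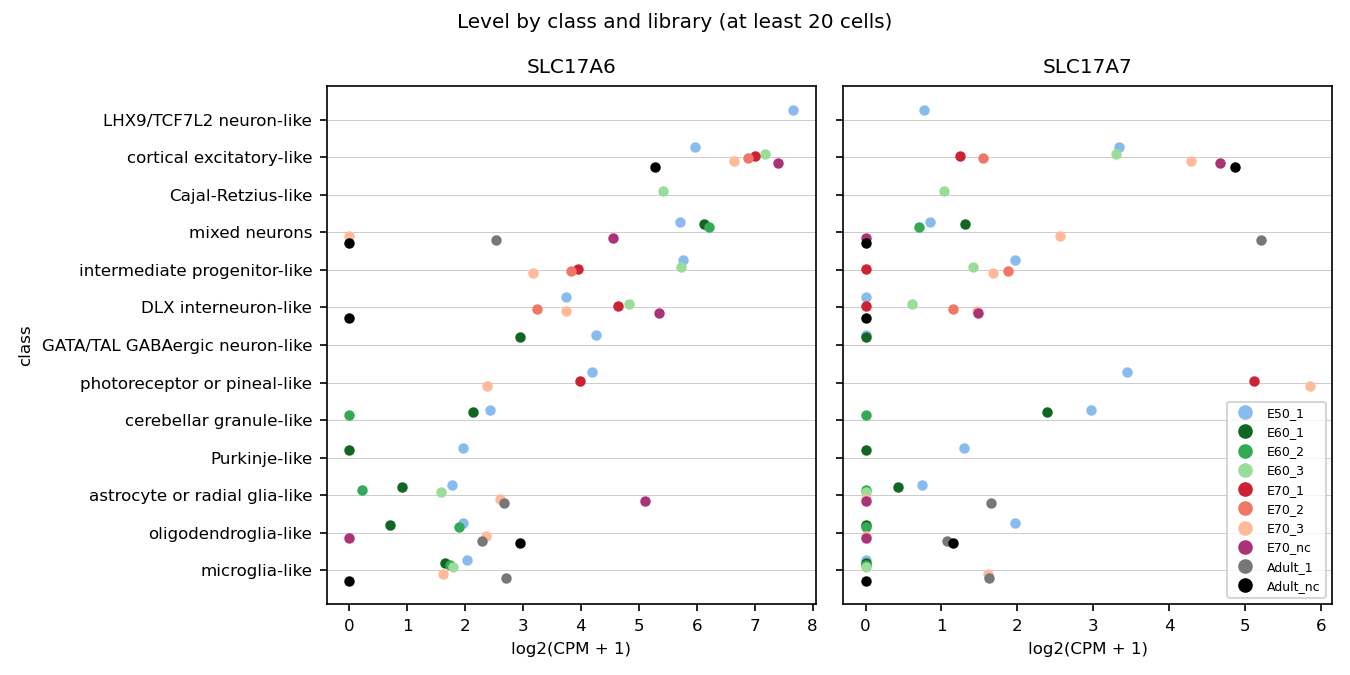
Level of SLC17A6 (left) and SLC17A7 (right) on the log2(CPM + 1) scale in each class, with 1 point per library that held at least 20 cells of the class. For SLC17A6 the LHX9/TCF7L2 neuron-like and cortical excitatory-like cells lie farthest to the right, and for SLC17A7 the photoreceptor or pineal-like cells of E70_3 (56.8 CPM) do, followed by the mixed neurons of Adult_1 (36.0 CPM), with the cortical excitatory-like cells at up to 28.3 CPM.

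Cortical excitatory-like cells fell into 5 clusters, and these differed in both transporters. Cluster 10, led by NTS, CRYM, RGS4, ARPP21 and FEZF2, had SLC17A7 at 29.2 CPM and SLC17A6 at 46.4 CPM. FEZF2, a transcription factor that specifies deep-layer projection neurons, was at 186 CPM in this cluster and between 2.04 and 23.2 CPM in the other 4. Cluster 23, made mostly of nuclei (281 of 366 cells from E70_nc), had SLC17A7 at 27.0 CPM and SLC17A6 at 130 CPM. Clusters 0, 2 and 9 had SLC17A7 at 6.48, 6.93 and 2.88 CPM and SLC17A6 at 159, 76.5 and 113 CPM. Cluster 0 was led by SEMA3C and PALMD, cluster 2 by NEUROD6 and NEUROD2, and cluster 9 by SLIT2 and FAM19A2. Over all libraries, cluster 10 (25.9 to 32.8 CPM) and cluster 23 (20.2 to 35.4 CPM) did not differ in SLC17A7 beyond counting error, and both lay above the other 3. The libraries in each cluster differ. Cluster 10 held 37.0% of all SLC17A7 UMIs in 733 cells. The clusters were made from these same cells, with both transporters kept out of the genes that defined them, so these differences carry no test.

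Cluster 10 was split off here because its SLC17A7 level was the highest of the cortical excitatory-like clusters. Of its 285 SLC17A7 UMIs 205 came from E70_3, so the contrast in E70_3 largely repeats the values behind that choice. The contrasts within E70_3 and E50_1 are therefore only described. In E70_3, SLC17A7 was at 43.9 CPM (38.1 to 50.4) in the 218 cells of cluster 10 and at 5.42 CPM (4.01 to 7.17) in the other 1315 cortical excitatory-like cells, while SLC17A6 was at 69.2 and 115 CPM. These cells of cluster 10 had a median of 18207.5 UMIs against 6283 in the others, and 123 of them had over 2.5 times the median of the library. Without such cells, SLC17A7 was at 21.3 CPM (13.9 to 31.2) in 95 cells of cluster 10 and at 5.23 CPM (3.83 to 6.98) in the others. In E50_1, SLC17A7 was at 13.0 CPM (9.87 to 16.9) in 427 cells of cluster 10 and at 7.57 CPM (6.07 to 9.34) in the others, while SLC17A6 was at 18.1 and 78.4 CPM. In E70_nc, SLC17A7 was at 19.4 CPM (6.30 to 45.3) and 25.1 CPM (18.5 to 33.3), which did not differ beyond counting error. Cluster 10 made up 25.3% of the cortical excitatory-like cells of E50_1, 1.58% of E60_3, 0.847% of E70_1, 14.2% of E70_3 and 13.1% of E70_nc, and none of its cells came from E70_2. In the other clusters SLC17A7 was still lower in E70_1 (1.39 CPM, 0.286 to 4.05) and E70_2 (1.92 CPM, 0.704 to 4.17) than in E60_3 (7.35 CPM, 5.73 to 9.29).

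**Figure D4:**
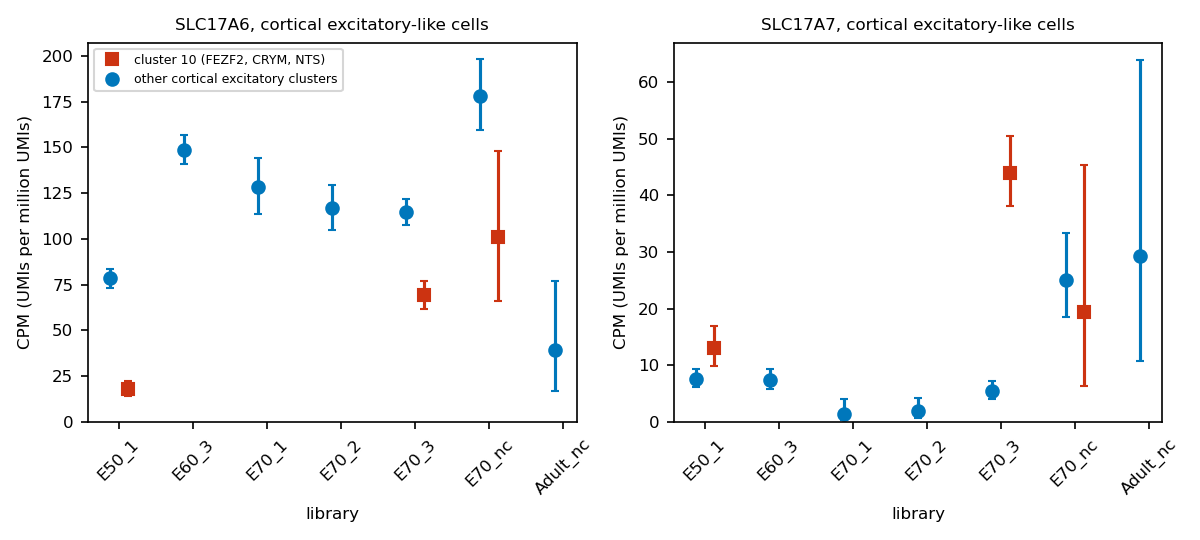
Level of SLC17A6 (left) and SLC17A7 (right) in CPM in cluster 10 and in the other cortical excitatory-like clusters, for each library with at least 20 such cells. Cluster 10 was chosen for its SLC17A7 level, the highest of these clusters. Bars are exact 95% Poisson intervals; SLC17A7 in cluster 10 of E70_3 (43.9 CPM) is the highest fetal value, and SLC17A6 is lower in cluster 10 in the 3 libraries that allow the comparison.

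Intermediate progenitor-like cells fell into a cluster with SLC17A6 and a cycling cluster with little of it. In cluster 15, led by EOMES and NEUROD4, SLC17A6 was at 105 CPM in E50_1 and 96.5 CPM in E60_3, against 20.6, 19.9 and 17.4 CPM in E70_1, E70_2 and E70_3. The E70 libraries thus lay together, far below the 2 earlier ones, with 21, 23 and 90 cells. EOMES itself was at 187, 195, 67.1, 243 and 203 CPM in the same order of libraries, and STMN2, a marker of young neurons, at 429, 243, 113, 188 and 232 CPM. GAP43 was at 792, 422, 315, 299 and 382 CPM. DCX was at 293, 328, 242, 152 and 247 CPM, and TBR1 at 40.7, 29.7, 20.6, 7.98 and 25.1 CPM. All of these, like STMN2, were lower in each E70 library than in the 2 earlier ones. SYT1, SNAP25 and NEUROD6 took other courses. SYT1 was at 759, 1192, 928, 758 and 988 CPM and SNAP25 at 143, 239, 108, 87.8 and 299 CPM. NEUROD6 was at 85.0, 1.68, 0, 3.99 and 1.93 CPM. The level of TOP2A, which dividing cells express, ranged from 3.86 to 36.1 CPM over these libraries. With E60_3 as the only E60 library that had 20 of these cells, the difference was not tested. In cluster 22, the cycling cells led by CENPF and TOP2A, the level of SLC17A6 was 8.80 CPM and that of SLC17A7 0.391 CPM. In 69 Cajal-Retzius-like cells, early RELN-positive neurons of the cortical surface, the levels were 45.8 CPM (SLC17A6) and 0.566 CPM (SLC17A7). These cells had a median of 26899 UMIs, 3.53 times that of their libraries.

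The highest SLC17A7 level of any class, 34.2 CPM, was that of the photoreceptor or pineal-like cells, whose SLC17A6 level was 12.8 CPM. It was at 9.85 CPM in E50_1 (4 UMIs in 53 cells), 33.6 CPM in E70_1 (36 UMIs in 27 cells) and 56.8 CPM in E70_3 (27 UMIs in 64 cells). The sources of the UMIs differed between the 2 E70 libraries. In E70_1, 34 of the 36 UMIs were in 6 of the 7 cells with over 50000 UMIs, the largest of which had 230571. In E70_3, no cell of the class had over 21541 UMIs, and the 27 UMIs were spread over 22 cells. RCVRN was at 370 CPM in the 7 deep cells of E70_1 and at 395 CPM in the E70_3 cells. Cerebellar granule-like cells of cluster 27, led by CBLN1, SCT and ZIC4, had SLC17A7 at 9.66 CPM and SLC17A6 at 5.43 CPM. In cluster 25 of the same class, SLC17A7 was at 1.74 CPM, within the range of the background.

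GABAergic classes had lower mean levels of SLC17A6 than the cortical excitatory-like cells, and SLC17A7 near the background. DLX interneuron-like cells, born in the ventral forebrain, had SLC17A6 at a mean of 17.8 CPM ± 13.3 (SD, n = 7 libraries), with 12.4 CPM in E50_1, 27.5 CPM in E60_3, 24.0, 8.52 and 12.3 CPM in E70_1, E70_2 and E70_3, 39.6 CPM (24.8 to 59.9) in E70_nc and 0 in the 49 adult nuclei, whose interval reached 23.8 CPM. In E70_nc, which has no background of its own, 25 astrocyte or radial glia-like nuclei were at 33.5 CPM (2 UMIs, 4.05 to 121). The 23 oligodendroglia-like nuclei of E70_nc had no UMI (up to 98.4 CPM). Neither differed from the interneuron-like nuclei of that library beyond counting error. Cluster 16, led by DLX1, DLX5 and VIP, was at 29.5 CPM and cluster 21, led by CORT, NXPH1 and LHX6, at 5.52 CPM. SLC17A7 was at 0.425 to 1.39 CPM in these 2 clusters, within the background. GATA/TAL GABAergic neuron-like cells had SLC17A6 at 17.1 CPM and no UMI of SLC17A7, and Purkinje-like cells had 2.34 and 1.17 CPM, also within the background.

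By the mean over libraries, the neuronal classes ranked for SLC17A6 in the order LHX9/TCF7L2 neuron-like, cortical excitatory-like, Cajal-Retzius-like, mixed neurons, intermediate progenitor-like, DLX interneuron-like, GATA/TAL GABAergic neuron-like, photoreceptor or pineal-like, cerebellar granule-like and Purkinje-like. Only the first of these neighbours stood apart, at 202 CPM against at most 169 CPM in the second, and all further neighbours overlapped in range. The values of the LHX9/TCF7L2 neuron-like and of the Cajal-Retzius-like cells rest on 1 library each. The order also depended on the clustering. Without batch correction the mean of the LHX9/TCF7L2 neuron-like cells (106 CPM) lay below those of cortical excitatory-like (112 CPM) and intermediate progenitor-like cells (142 CPM), and at a resolution of 1 the intermediate progenitor-like cells were at 183 CPM and the GATA/TAL GABAergic neuron-like cells at 73.0 CPM. For SLC17A7, the photoreceptor or pineal-like cells (9.85 to 56.8 CPM) and the cortical excitatory-like cells (1.36 to 28.3 CPM) overlapped each other. The mixed neurons followed at 0 to 36.0 CPM, with 0 to 4.88 CPM outside Adult_1, and granule-like cells at 0 to 6.87 CPM.

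**Figure D5:**
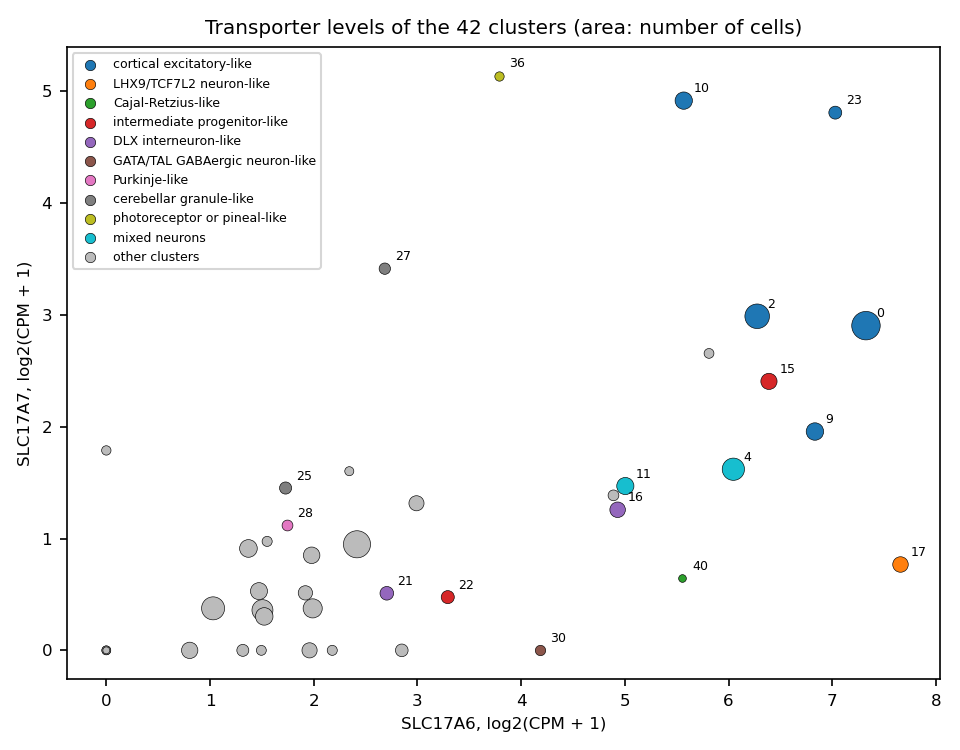
Level of SLC17A6 (horizontal) and SLC17A7 (vertical) in the 42 clusters of kept cells, on the log2(CPM + 1) scale, with neuronal clusters numbered and the area showing the number of cells. Cluster 17 lies lowest to the right, with SLC17A6 at 201 CPM and SLC17A7 at 0.704 CPM. Cluster 36 (photoreceptor or pineal-like) lies at the top near the middle, with SLC17A6 at 12.8 CPM. Clusters 10 and 23 also lie near the top, farther to the right.

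Cells with both transporters were found mainly among the cortical excitatory-like cells, where 205 of 5564 cells (3.68%, 3.20 to 4.21%) had a UMI of each. The product of the separate shares gives 202 cells, so the pair was seen together about as often as the 2 shares alone would give. In cluster 10 the count was 88 of 733 cells against a product of 51.1. Without the cells of over 2.5 times the median UMIs of their library it was 21 of 579 against 17.1, so the deepest cells held most of the excess. No microglia-like cell of 2434 had both, which allows up to 0.151%. At 1000 UMIs per cell, with 73 shallower cells left out, 5 of 5491 cortical excitatory-like cells had both (0.0911%, 0.0296 to 0.212%).

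In the mixed neurons, cells with both a transporter and a GAD gene were fewer than the product of the shares. In cluster 4 (led by PENK, TAC1 and SST), 356 of 1274 cells had a UMI of SLC17A6 or SLC17A7 and 584 had one of GAD1 or GAD2, yet 59 had both (4.63%, 3.54 to 5.93%), where the product of the shares gives 163. The count lay below the product in E50_1 (34 against 90.8), E60_1 (15 against 50.5) and E60_2 (4 against 12.3), and not in the 33 cells of Adult_1 (4 against 3.64). At 2000 UMIs per cell it was 8 of 1272 cells against 43.5. Cluster 4 was the place of most SLC17A6 in E60_1 and E60_2, at 95.0 and 153 CPM there and 51.3 CPM in E50_1. In cluster 16 of the interneurons 52 of the 56 cells with a transporter also had a GAD gene, where the product gives 46.4. At 2000 UMIs per cell it was 7 of 20. In cortical excitatory-like cells 249 had a transporter and a GAD gene (4.48%, 3.95 to 5.05%) against a product of 229. Microglia-like cells had both in 0.247% (0.0905 to 0.536%).

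The adult libraries held few neurons, 36 cells of Adult_1 and 184 nuclei of Adult_nc. In Adult_1, SLC17A6 was at 5.92 CPM in neurons and 5.53 CPM in microglia-like cells, so that it could not be told from background. SLC17A7 was at 36.0 CPM (20.2 to 59.4) in 34 mixed neurons, against 2.08 CPM in microglia-like cells (0.428 to 6.07). Of the 33 of these cells in cluster 4, 11 had SLC17A7, 10 had a GAD gene and 3 had both. In Adult_nc 6 of the 8 SLC17A7 UMIs and 8 of the 19 SLC17A6 UMIs were in cortical excitatory-like nuclei, and 11 of the SLC17A6 UMIs were in 1924 oligodendroglia-like nuclei at 6.76 CPM.

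Other vesicular transporters also differed between these classes. SLC32A1, which loads GABA and glycine, was at 111 CPM in Purkinje-like, 78.4 CPM in GATA/TAL GABAergic neuron-like and 17.5 CPM in DLX interneuron-like cells, and at 1.08 CPM in cortical excitatory-like cells. SLC17A8, the third glutamate transporter of the family, was at 24.2 CPM in mixed neurons, 5.06 CPM in cortical excitatory-like and 4.61 CPM in microglia-like cells. Of its 376 UMIs in mixed neurons 334 came from E50_1, at 44.6 CPM against 14.8 CPM in the microglia-like cells of that library. In E60_1 and E60_2 the mixed neurons were at 5.59 and 1.90 CPM and the microglia-like cells at 3.56 and 1.56 CPM. SLC18A2, which loads monoamines, was at 28.8 CPM in mixed neurons. Between E60 and E70 in neurons, SLC32A1 differed by -3.70 (SE 0.87, adjusted p = 0.15) and SLC18A2 by -1.97 (SE 0.73, adjusted p = 0.16) in the edgeR fit, and neither passed.

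No gene of the lists of the glutamate pathway passed that test. Of the 6 vesicular transporters tested 0 were called, with a median log2 difference of 0.34 in neurons and 1.01 over all cells. The same fit called 0% of all genes, so the counts say nothing particular to these lists. In neurons 0 of 9 tested genes of glutamate supply, 0 of 9 of vesicle acidification, 0 of 19 of vesicle release, 0 of 5 of glutamate uptake and 0 of 7 pan-neuronal genes were called. Their median log2 differences were -0.37, -0.74, -0.37, 0.15 and -0.50, against -0.05 over all genes. Over all cells the same lists also gave 0 calls, with medians of -0.57, -0.46, 0.57, 0.47 and 0.57 against -0.06.

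The genes whose level over 41 clusters of at least 50 cells was most like that of SLC17A6 were FAM19A2 (Pearson r = 0.83), NPAS4, MYT1L, SYT4 and SCN3A (r = 0.81 each). For SLC17A7 they were RTN4RL2 (r = 0.77), EPHA7, NEUROD6 (r = 0.71 each), RBFOX3 and NEUROD2 (r = 0.70 each). Here 13223 genes were compared on log2(CPM + 1), and clusters share libraries and depth, so the values only describe likeness. Between SLC17A6 and SLC17A7 themselves r was 0.57.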

How the data were processed

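The authors sequenced 10x Genomics version 2 libraries and mapped them with Cell Ranger (version 2.20 in the submitters' processing notes) to Sscrofa11.1 with introns counted. They deposited raw UMI counts per gene and cell, 1 table per library, without normalization. No doublet caller or correction for free RNA was run here. Cells of over 2.5 times the median UMIs of their library were left out in an alternative instead. RefSeq names were matched to 987 genes that the tables list by identifier.

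Cells were scaled to 10000 UMIs, merged by FastMNN-like correction on 3000 variable genes and 50 components, and clustered by the Louvain method (resolution 1.6). Erythroid and vascular clusters were dropped, leaving 23890 cells in 42 clusters. A cluster took the class whose markers had the highest mean standardized level, with at least 3 markers in 5% of its cells. Where the next neuronal class came within 0.3 and led no less among the top 10 genes it was called mixed neurons, and this margin was set after clusters were seen. All list genes were kept out of the variable genes, and SLC17A6 and SLC17A7 named no class. Levels of whole libraries and the test over all cells used all 28229 cells. Classes are clusters of these same cells, and only libraries with at least 20 cells of a class were used.

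UMIs were summed per library and tested between E60 and E70 with edgeR 4.0.16 (TMM, filterByExpr, quasi-likelihood, Benjamini-Hochberg over all genes), with DESeq2 1.42.0 as an alternative. Cells are not replicates. The labels do not say that the replicates came from separate litters, so p-values measure the spread between libraries. The code was tested on simulated counts with known changes. The labels number the replicates 1 to 3 in both groups. Same-numbered libraries did not deviate together, so the numbers were not taken as pairs. The authors sequenced libraries of different stages together in pools. By the numbers in the study's supplement, read here as shared pools, E60_1 was pooled with E70_1 and E60_3 with E70_3. The main fits held no term for the pool. Shares of cells have Clopper-Pearson intervals, and UMI counts exact Poisson intervals (95%). Genes named were SLC17A6, SLC17A7, the vesicular transporters (no list gene was called in neurons) and the 5 genes most like each over clusters. Genes that lead clusters describe them. The gene pair, lists and tests were chosen with earlier results of these data known. A marker that is not reported here was also part of the cortical excitatory list.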

Additional observations from a re-analysis of the deposited data

How the results depend on the processing

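Which library is in the E60 group decided the stage results. Leaving out 1 library at a time gave log2 differences from 0.59 to 2.57 for SLC17A6 and from 1.36 to 4.14 for SLC17A7 over all cells, both highest and past the edgeR threshold without E60_3, and from -0.19 to 0.20 (SLC17A6) and 0.62 to 2.43 (SLC17A7) in neurons. The number of genes called ranged from 0 to 5902 over all cells and from 0 to 4269 in neurons, and was also above 0 without E70_3 (1570 and 1324). DESeq2 called 2833 and 1766 genes. With E60_1 and E60_2 both left out SLC17A6 over all cells was at -0.19. In neurons, where SLC17A6 was at -0.02, its sign turned with DESeq2 (0.0028), without TMM (0.11), with the replicate block (0.0029), without batch correction (0.039) and without photoreceptor or pineal-like cells (0.16). The block of replicate numbers changed no call. A block of sequencing pools, fitted over all cells, gave differences of 0.89 (SLC17A6) and 2.48 (SLC17A7) and also changed no call. Same-numbered libraries correlated by -0.17, 0.03 and -0.13 in their deviations over all cells. Without TMM the median of all genes was at 0.12 over all cells and 0.11 in neurons. The difference in the SLC17A7 share was -0.51 points when cells were thinned to 1000 UMIs. Cells with both transporters among cortical excitatory-like cells were 0.0911% at 1000 UMIs, 0.262% at 2000 UMIs and 2.31% without high-UMI cells, and those with a transporter and a GAD gene 0.146%, 0.469% and 3.86%. Of the other class means under another clustering or without high-UMI cells, 9 moved by more than 1 SD between libraries (with 1 library, outside its counting interval), 8 of them upwards, and 43 did not. That SD is wide, and SLC17A7 in mixed neurons went from 6.26 to 1.07 CPM within it at a resolution of 1. SLC17A7 had 10 UMIs or fewer in E60_2, E70_2 and Adult_nc.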
